A study of Rattus norvegicus with 9 samples.

Results

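The small leucine-rich proteoglycans (SLRPs) were followed here as 10 named genes, Fmod, Dcn, Bgn, Lum, Epyc, Ogn, Omd, Prelp, Aspn and Podn, looked up by symbol in a gene expression table of 22050 genes. Of the 10 symbols, 9 had a row and Podn was not matched to one, so podocan is not analysed here. The RNA came from NRK-49F, one established line of rat renal fibroblasts, labelled wild type. All 9 libraries were from cells given TGF-β1, the cytokine that turns fibroblasts into matrix-producing myofibroblasts, and the labels state a 48 h incubation. The groups were TGF-β1+vehicle (3 libraries), TGF-β1 plus a compound named YEXX-2A (3 libraries) and TGF-β1 plus another named YWCH-4A (3 libraries). Both compounds are known by code name, the labels give neither dose nor timing for them, and libraries of cells lacking TGF-β1 are not analysed here. The comparisons ask how each compound changed SLRP transcripts in cells that all had TGF-β1, and how the compounds differed from each other. The labels call the replicates biological but do not say whether they were separate cultures, so a p-value here speaks of the scatter among these libraries of a single cell line, which may be technical.

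SLRPs are secreted proteins built on a core of leucine-rich repeats, most of which carry chondroitin, dermatan or keratan sulfate chains. They bind collagen fibrils and set their diameter and spacing, and several of them also bind TGF-β or cell surface receptors. In the kidney, decorin is known as a TGF-β antagonist and biglycan, when released from the matrix, as a ligand of Toll-like receptors. By sequence and gene structure the family is split into classes: decorin (Dcn), biglycan (Bgn) and asporin (Aspn) in class I, fibromodulin (Fmod), lumican (Lum), PRELP (Prelp) and osteomodulin (Omd) in class II, epiphycan (Epyc) and osteoglycin (Ogn) in class III.

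The results turn on Fmod, which was lower with both compounds, and Epyc, which was lower with YWCH-4A alone in the tests against vehicle, so the 250 bases before their start sites are shown, taken from RefSeq on build GRCr8, both on the plus strand and written 5′ to 3′. Capitals mark the letters CAGAC, the core motif bound by SMAD proteins (the transcription factors of the TGF-β pathway), searched on both strands.
Fmod, chr13:48045317-48045566: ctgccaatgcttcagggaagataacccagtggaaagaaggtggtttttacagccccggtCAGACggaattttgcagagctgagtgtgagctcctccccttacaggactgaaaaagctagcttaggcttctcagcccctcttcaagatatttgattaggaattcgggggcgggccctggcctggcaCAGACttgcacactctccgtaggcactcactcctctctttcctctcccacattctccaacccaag
Epyc, chr7:34323082-34323331: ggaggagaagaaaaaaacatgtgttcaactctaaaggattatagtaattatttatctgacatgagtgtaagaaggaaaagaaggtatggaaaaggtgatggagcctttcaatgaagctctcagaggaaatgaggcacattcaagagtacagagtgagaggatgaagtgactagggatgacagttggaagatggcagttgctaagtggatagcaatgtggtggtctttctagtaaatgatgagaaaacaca
The Fmod window held 2 CAGAC matches, beginning 191 and 65 bases before the start, and a CCAAT box match beginning 247 bases before it. The Epyc window held no match to CAGAC, to the AP-1 motif TGANTCA, to the TATA box letters TATAAA or to CCAAT. Among 33469 RefSeq promoter windows of the same length, 42.9% held CAGAC at least once and 11.5% held 2 or more matches. AP-1 matches were in 6.34% of them, TATAAA in 12.9% and CCAAT in 34%. The GC content was 52.8% for Fmod and 39.2% for Epyc. The RefSeq promoter table matched 7 of the 10 genes. Among the other 5, the Lum window held 3 CAGAC matches, more than Fmod, the Ogn window 1, and the Omd, Aspn and Podn windows 0. Unlike those of Fmod, Epyc and Omd, the Lum, Ogn, Aspn and Podn windows do not end at the annotated gene start. A match describes the letters only.

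Library totals ran from 13675880 to 21923706 estimated counts. The vehicle libraries differed most among themselves, with a coefficient of variation between replicates of 16.6% against 7.32% with YEXX-2A and 3.66% with YWCH-4A. Vehicle replicate 2 stood apart, and without it the vehicle value was 4.68%, so each call of an SLRP gene that changes without this library is given both ways. Fibroblast markers were high in every library, with Fn1 at 22173 CPM (counts scaled to a common library size) or more and Pdgfra at 157 or more, but Thy1 was at most 0.888. Of 6 kidney epithelial markers, Epcam and Krt18 were at 0 in all libraries, and Cdh1, Cdh16 and Pax8 were at most 0.25, 0.182 and 0.792 CPM. The remaining one, Krt8, reached 896 to 2202 CPM and made up nearly all of the summed level of 1713 to 2203 with vehicle, 1482 to 1568 with YEXX-2A and 897 to 946 with YWCH-4A. The 7 fibroblast markers found summed to 58994 to 75996, 51039 to 55325 and 35420 to 38556 CPM in the same order. Much of that change was in Col1a1, which averaged 32188 CPM with vehicle, 21958 with YEXX-2A and 6464 with YWCH-4A. The fibroblast markers did not move together. Over the 6 tested, the median log2 difference from vehicle was -0.11 with YEXX-2A and 0.03 with YWCH-4A. With YWCH-4A the differences ran from -2.32 to 0.69. The part of either marker sum in the results below was not tested. The 5 leukocyte markers summed to at most 0.455 CPM. Of 6 cartilage and bone markers, Acan and Bglap were at 0, and Col2a1, Sp7 and Ibsp at 0.208 CPM or less. The remaining one, Sox9, was at 22.8 to 30.7 CPM.

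Biglycan made up nearly all the message of the 9 genes with a row. On the FPKM scale, which divides by transcript length and so allows genes to be set side by side, Bgn averaged 2824 ± 297 (SD, n = 3) with vehicle, 2748 ± 84.7 with YEXX-2A and 1969 ± 65.0 with YWCH-4A. It held 98.7% to 99.2% of the summed FPKM of the 9 genes in every library and ranked 13th to 18th of all 22050 genes. Tsku, an SLRP gene outside the 9, averaged 229 FPKM with vehicle, 170 with YEXX-2A and 142 with YWCH-4A. With vehicle the order below Bgn among the 9 genes was Lum at 20.3, Fmod at 6.94, Epyc at 2.85 and Aspn at 1.95 FPKM. The ranges of Epyc and Aspn overlapped. With YEXX-2A the order changed to Lum at 15.1, Aspn at 3.41, Epyc at 3.35 and Fmod at 1.99 FPKM, again with Aspn and Epyc overlapping. With YWCH-4A it was Lum at 17.3, Aspn at 1.27, Fmod at 1.17 and Epyc at 0.297 FPKM, with Aspn and Fmod overlapping. Fmod thus stood above Epyc with vehicle and below it with YEXX-2A. The place of Aspn depends on a second gene model, Aspnl1, that shares its reads: with it added, the sum was 6.86 FPKM with vehicle (4.33 to 8.76, overlapping Fmod), 8.67 with YEXX-2A and 3.34 with YWCH-4A, above Fmod in both. Ogn, Prelp and Dcn were at 0.34 FPKM or less in every library and Omd was at 0 throughout.

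**Figure D1:**
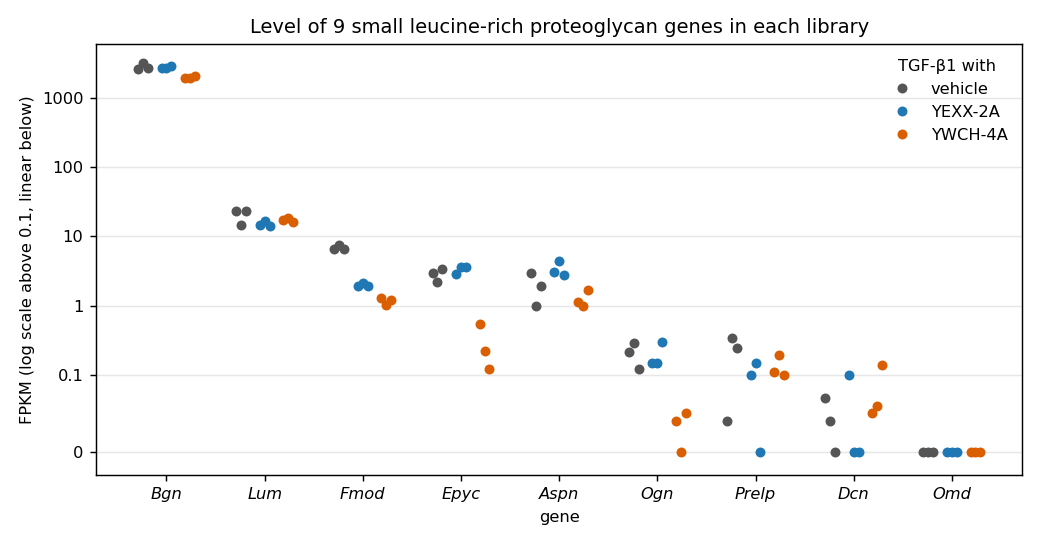
FPKM of 9 SLRP genes (x axis) in each of the 9 libraries; the y axis is logarithmic above 0.1 and linear below, and each point is 1 library, coloured by group. Bgn lies between 1919 and 3166 FPKM in all libraries, Lum between 14.3 and 23.2, and Omd at 0.

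The comparisons rest on 5 of the 9 genes, those with enough reads to test: Fmod, Lum, Epyc, Bgn and Aspn. A gene was called when its adjusted p was under 0.05 in edgeR's quasi-likelihood test over 11473 genes. With YEXX-2A against vehicle, 2 of the 5 were called lower (Fmod and Lum) and 0 higher, where 36.1% of all tested genes were called, 18.5% lower and 17.6% higher. With YWCH-4A against vehicle, 3 of the 5 were called lower (Fmod, Epyc and Bgn) and 0 higher, where 30.6% of all genes were called, 14.9% lower and 15.7% higher. Between the compounds, 4 of the 5 were lower with YWCH-4A than with YEXX-2A (Fmod, Epyc, Bgn and Aspn) and 0 higher, where 31.3% of all genes were called, 15.1% lower and 16.2% higher. The median log2 difference over the 5 genes was -0.13, -0.77 and -0.86 in the 3 comparisons, and that over all tested genes 0.01, 0.03 and -0.00. Epyc passed the read filter through the vehicle and YEXX-2A libraries alone, where it is high, and the groups are shared among the comparisons, so these counts describe the genes and support nothing more. At an unadjusted p under 0.05 the edgeR counts of higher genes were 1, 0 and 0, and DESeq2 called 0, 0 and 0 higher in the same order. The count of 2 with YEXX-2A was 1 without any one of vehicle replicates 1 and 3 and YEXX-2A replicates 1 to 3, and the count of 3 with YWCH-4A was 5 without vehicle replicate 2.

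**Figure D2:**
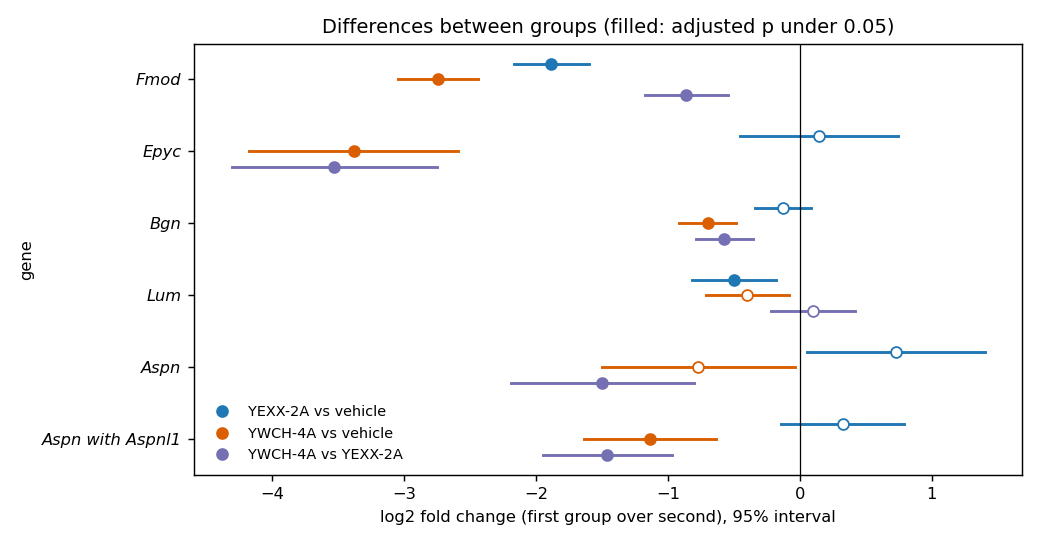
Difference between groups for each tested SLRP gene on the log2 scale (x axis), with bars for the 95% interval and filled points for an adjusted p under 0.05 in edgeR's test. Fmod lies below 0 in all 3 comparisons, and Epyc lies below 0 where YWCH-4A is compared with vehicle or with YEXX-2A.

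Fibromodulin, which binds collagen I and III fibrils and carries keratan sulfate, was the only one of the 5 genes called lower in all 3 comparisons. Fmod (ENSRNOG00000003183) was at 24.2, 30.0 and 24.5 CPM in vehicle replicates 1 to 3, at 6.87, 7.58 and 6.81 with YEXX-2A, and at 4.27, 3.37 and 4.06 with YWCH-4A. No library of any group overlapped another group, and the lowest vehicle library was more than 3 times the highest compound-treated one. With YEXX-2A it fell by 1.88 on the log2 scale (SE 0.13, 3.69-fold lower; adjusted p 5.09e-05, edgeR), the 19th largest fall among 11473 tested genes. With YWCH-4A it fell by 2.74 (SE 0.14, 6.70-fold lower; adjusted p 1.42e-07, edgeR), the 36th largest. The direct comparison gave a level 1.82-fold lower with YWCH-4A than with YEXX-2A (log2 -0.86, SE 0.14; adjusted p 0.00117, edgeR). The RNA was from whole cultures, so fewer cells making a transcript and less of it per cell cannot be told apart for any gene here.

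Lumican, a keratan sulfate proteoglycan that shares a collagen binding region with fibromodulin, moved far less. Lum (ENSRNOG00000004610) was at 48.1, 32.5 and 48.8 CPM with vehicle, 28.9, 33.6 and 29.2 with YEXX-2A, and 32.9, 34.6 and 30.7 with YWCH-4A. Vehicle replicate 2 lay inside the range of both compound groups, and the other vehicle libraries lay above all 6 compound-treated ones. With YEXX-2A the log2 difference was -0.50 (SE 0.14; adjusted p 0.0249, edgeR), a call that did not hold in 9 of 19 alternatives. The adjusted p in edgeR was 0.068 without vehicle replicate 1, 0.0519 without vehicle replicate 3, and 0.0847, 0.0537 and 0.0615 without YEXX-2A replicates 1, 2 and 3. With YWCH-4A the difference was -0.40 (SE 0.14; adjusted p 0.0558, edgeR) and was not called. Without vehicle replicate 2 both passed in edgeR, at -0.66 (adjusted p 1.09e-05) with YEXX-2A and -0.56 (adjusted p 1.54e-05) with YWCH-4A. Between the compounds Lum differed by 0.10, with a 95% interval from -0.22 to 0.41 (adjusted p 0.631, edgeR).

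The ratio of Lum to Fmod, taken within each library on the FPKM scale, set these class II genes against each other. It was 3.51, 1.90 and 3.51 with vehicle, 7.41, 7.81 and 7.54 with YEXX-2A, and 13.6, 18.1 and 13.3 with YWCH-4A. The groups did not overlap, and the ratio was 2.65-fold higher with YEXX-2A and 5.19-fold higher with YWCH-4A than with vehicle. An exact two-sided permutation test gave p = 0.1 for each comparison, the smallest value that 3 libraries against 3 can give. The ratio follows from the separate differences of Fmod and Lum given above, so this p-value adds no further support. PRELP, the class II member whose N-terminus binds heparin and anchors basement membranes, had 17 estimated counts in all with vehicle, 12 with YEXX-2A and 14 with YWCH-4A. Its ratio to vehicle was 0.534 (exact 95% interval 0.233 to 1.19) with YEXX-2A and 0.607 (0.277 to 1.31) with YWCH-4A, so no difference was detectable at this depth. These intervals, and those for Ogn and Dcn below, cover counting error only. Osteomodulin, a keratan sulfate proteoglycan of bone, had 0 counts in all 9 libraries.

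**Figure D3:**
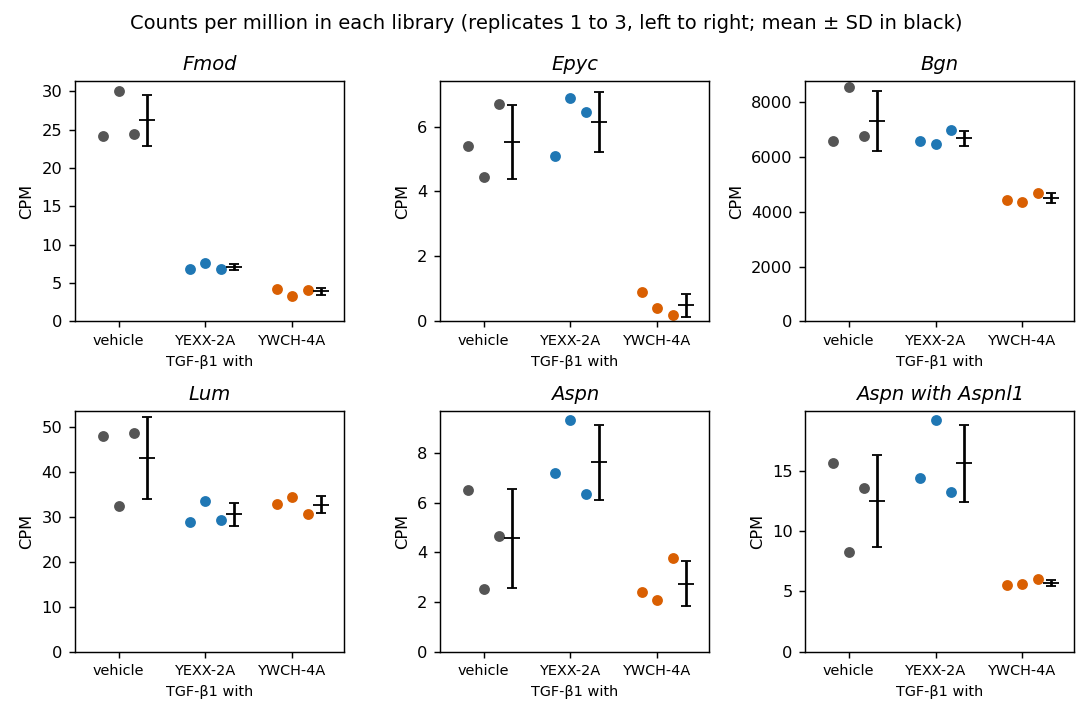
CPM (y axis) of Fmod, Epyc, Bgn, Lum, Aspn and of Aspn summed with Aspnl1 in each library, replicates 1 to 3 from left to right in each group, with the mean ± SD in black. Fmod separates all 3 groups, Epyc and Bgn separate YWCH-4A from the other groups, and Lum overlaps between groups through vehicle replicate 2 at 32.5 CPM.

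Epiphycan, a dermatan sulfate proteoglycan best known from growth plate cartilage, was far lower with YWCH-4A and showed no detectable difference with YEXX-2A. Epyc (ENSRNOG00000004717) was at 5.40, 4.44 and 6.71 CPM with vehicle, 5.09, 6.86 and 6.44 with YEXX-2A, and 0.891, 0.415 and 0.188 with YWCH-4A. The vehicle and YEXX-2A libraries overlapped, and every YWCH-4A library lay below both. These levels rest on 56 to 92 estimated counts per vehicle library, 87 to 135 with YEXX-2A, and 19, 8 and 3 in YWCH-4A replicates 1 to 3. Epyc fell by 3.38 with YWCH-4A on the log2 scale (SE 0.36, 10.4-fold lower), and the difference was -4.12 without YWCH-4A replicate 1, which holds most of the counts left. Against YEXX-2A the difference was -3.53 (SE 0.35), or -4.26 without that library. Epyc passed the read filter through the vehicle and YEXX-2A libraries alone, so the adjusted p is given from a run with no such filter. Over 15001 genes it was 6.21e-06 against vehicle and 4.18e-06 against YEXX-2A (edgeR). For YEXX-2A against vehicle the log2 difference was 0.15, with a 95% interval from -0.45 to 0.74 (adjusted p 0.678, edgeR). The cartilage marker Acan was at 0 beside it in all libraries, Col2a1 at 0.136 CPM or less, and Sox9 at 22.8 to 30.7 CPM.

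Osteoglycin, the other class III member, was near the limit of detection. Ogn (ENSRNOG00000047786) had 4, 5 and 2 estimated counts with vehicle, 4, 3.67 and 5 with YEXX-2A, and 1, 0 and 1 with YWCH-4A. Another gene model, NEWGENE_1308171, had 3.33 estimated counts in YEXX-2A replicate 2 and 0 in all other libraries. In that library alone the Ogn count was also not whole, so reads may have been split between these models, which was not tested. The ratios below use the Ogn row alone. The pooled level with YWCH-4A was 0.134 of that with vehicle (exact 95% interval 0.0144 to 0.614) and 0.15 of that with YEXX-2A (0.0164 to 0.663), while YEXX-2A against vehicle gave 0.893 (0.369 to 2.20). Ogn was too low for the read filter and has no call in the tests above. When 15001 genes were tested with no such filter, the adjusted p in edgeR was 0.0434 for YWCH-4A against vehicle and 0.0497 against YEXX-2A.

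Biglycan, a class I chondroitin and dermatan sulfate proteoglycan that binds collagen and TGF-β, was lower with YWCH-4A by a modest factor at a very high level. Bgn (ENSRNOG00000055962) was at 6576, 8555 and 6771 CPM with vehicle, 6581, 6478 and 6978 with YEXX-2A, and 4433, 4362 and 4693 with YWCH-4A. The YWCH-4A libraries lay below all others, and the YEXX-2A libraries overlapped the lower vehicle ones. With YWCH-4A Bgn fell by 0.70 on the log2 scale (SE 0.10, 1.62-fold lower; adjusted p 0.000313, edgeR). Its difference from vehicle was -0.57 without vehicle replicate 2, and ran from -0.77 to -0.52 over the 19 alternatives. Bgn was lower with YWCH-4A than with YEXX-2A by a log2 difference of -0.57 (SE 0.10; adjusted p 0.00136, edgeR). With YEXX-2A against vehicle the difference was -0.13, with a 95% interval from -0.34 to 0.09 (adjusted p 0.297, edgeR), and 0.00 without vehicle replicate 2. Bgn alone took 0.685% of all estimated counts with vehicle, 0.667% with YEXX-2A and 0.478% with YWCH-4A.

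Because SLRPs coat collagen fibrils, Bgn was also set against the fibrillar collagens of the same library. On the FPKM scale the ratio of Bgn to Col1a1, a chain of collagen I, was 0.546 ± 0.0170 (SD, n = 3) with vehicle, 0.731 ± 0.0194 with YEXX-2A and 1.67 ± 0.0353 with YWCH-4A. Its ratio to Col3a1, the chain of collagen III, was 1.59 ± 0.108, 2.72 ± 0.111 and 13.0 ± 0.721 in the same order. Neither ratio overlapped between any groups, and Bgn went from 1.59 to 13.0 times the level of Col3a1. The Bgn to Col1a1 ratio was 3.06-fold and the Bgn to Col3a1 ratio 8.13-fold higher with YWCH-4A than with vehicle (exact two-sided permutation test, p = 0.1 for each, the smallest possible). These ratios follow from the separate differences of their genes, so the p-values add no further support. The collagens moved more than Bgn did: Col1a1 fell by 2.32 on the log2 scale with YWCH-4A and Col3a1 fell by 3.72, against the fall of 0.70 for Bgn.

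**Figure D4:**
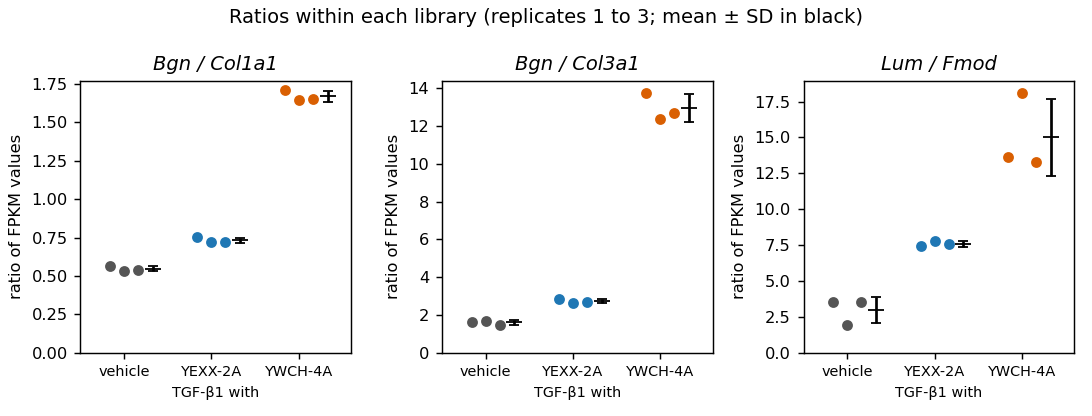
Ratios of FPKM values within each library (y axis) for Bgn over Col1a1, Bgn over Col3a1 and Lum over Fmod, replicates 1 to 3 from left to right in each group, with the mean ± SD in black. All 3 ratios are lowest with vehicle and highest with YWCH-4A, where they average 1.67, 13.0 and 15.0.

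Asporin, a class I protein with a run of aspartates in place of most sugar chains, binds TGF-β1 and collagen I, and it differed between the compounds. Aspn (ENSRNOG00000050431) was at 6.51, 2.53 and 4.67 CPM with vehicle, 7.19, 9.31 and 6.36 with YEXX-2A, and 2.39, 2.08 and 3.75 with YWCH-4A. The YEXX-2A libraries lay above all YWCH-4A ones, and the vehicle libraries spread across both. Aspn was lower with YWCH-4A than with YEXX-2A by a log2 difference of -1.50 (SE 0.31; adjusted p 0.00479, edgeR). Against vehicle it was not called, at 0.73 with YEXX-2A (adjusted p 0.081, edgeR) and -0.77 with YWCH-4A (adjusted p 0.103, edgeR). These depended on single libraries in edgeR, with 1.08 (adjusted p 0.0328) for YEXX-2A without vehicle replicate 1 and -1.05 (adjusted p 0.0035) for YWCH-4A without vehicle replicate 2.

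The second gene model, Aspnl1, has a name that RefSeq lists as a synonym of Aspn, and the estimated counts of both models are not whole numbers, so reads were split between them. Summed, in a comparison chosen after the values were seen, they stood at 15.6, 8.24 and 13.6 CPM with vehicle, 14.4, 19.3 and 13.2 with YEXX-2A, and 5.54, 5.60 and 6.003 with YWCH-4A. Every YWCH-4A library then lay below every other library. The summed level fell by 1.13 with YWCH-4A (SE 0.23; adjusted p 0.00329, edgeR) and differed from YEXX-2A by -1.46 (SE 0.22; adjusted p 0.000654, edgeR). For YEXX-2A against vehicle it was 0.32 (adjusted p 0.233, edgeR). The difference between YWCH-4A and vehicle was thus called for the sum and not for the Aspn row, while that between the compounds was called for both.

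Decorin, the best known TGF-β binding SLRP and abundant in many fibroblasts, was close to absent. Dcn (ENSRNOG00000004554) had 2, 1 and 0 estimated counts with vehicle, 4, 0 and 0 with YEXX-2A, and 2, 2 and 4 with YWCH-4A. Its pooled ratio of YWCH-4A to vehicle was 1.97 with an exact 95% interval from 0.472 to 11.5, so no difference was detectable at this depth. In FPKM, Dcn averaged 0.0367 with vehicle beside 2824 for Bgn, its nearest relative in class I.

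Several of these genes lie side by side in the RefSeq annotation. Dcn, Lum, Kera and Epyc follow each other on chromosome 7. With YWCH-4A, Lum was at 16.1 to 18.3 FPKM, Epyc at 0.55 or less and Dcn at 0.14 or less. Ogn, Omd and Aspn are consecutive on chromosome 17. Ogn, at its low counts, was at 0.134 of vehicle with YWCH-4A and 0.893 with YEXX-2A, and Aspn summed with Aspnl1 gave log2 differences of -1.13 and 0.32 in the same order, with Omd at 0. Prelp is the protein-coding neighbour of Fmod on chromosome 13 and had at most 8 estimated counts in a library. Whether neighbours respond alike or differently was not tested.

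The counts in the gene lists that follow stand beside the 36.1% of all tested genes called with YEXX-2A, 30.6% with YWCH-4A and 31.3% between the compounds. Of 8 other SLRP genes, 7 had a row and 2 had enough reads to test. Tsku, which encodes tsukushi, a secreted inhibitor of several growth factor pathways, averaged 629 ± 96.0 CPM with vehicle, 439 ± 16.9 with YEXX-2A and 344 ± 7.51 with YWCH-4A. It fell by 0.52 with YEXX-2A (SE 0.09; adjusted p 0.00514, edgeR) and by 0.87 with YWCH-4A (SE 0.09; adjusted p 5.25e-05, edgeR). Podnl1, the podocan-like gene, averaged 16.6 ± 4.31, 11.9 ± 1.50 and 6.13 ± 0.742 CPM in the same order. It fell by 1.44 with YWCH-4A (SE 0.19; adjusted p 0.000227, edgeR), and its difference of -0.47 with YEXX-2A was not called (adjusted p 0.0632, edgeR).

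The 7 tested collagens to which SLRPs bind were lower in all 3 comparisons, 7 of 7 in each. Their median log2 difference was -0.58 with YEXX-2A and -1.76 with YWCH-4A, and all 7 stayed lower without vehicle replicate 2. Col12a1, a collagen on the fibril surface, fell by 0.60 with YEXX-2A and by 1.83 with YWCH-4A. The collagens thus moved in the direction of Fmod in both comparisons, while Bgn was called in 1 of the comparisons against vehicle.

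Among 11 tested enzymes and cofactors that process or cleave SLRPs, 6 were lower and 1 higher with YEXX-2A, and 3 lower and 3 higher with YWCH-4A. The matrix metalloproteinase Mmp3, which can cleave several SLRP cores, averaged 163 ± 11.8 CPM with vehicle, 81.0 ± 2.01 with YEXX-2A and 2062 ± 116 with YWCH-4A. It fell by 1.01 with YEXX-2A (SE 0.07; adjusted p 5.09e-05, edgeR) and rose by 3.66 with YWCH-4A (SE 0.08; adjusted p 7.32e-10, edgeR). Mmp13, a collagenase reported to cut fibromodulin and biglycan, averaged 4.86 ± 1.82 CPM with vehicle and 219 ± 18.7 with YWCH-4A, a rise of 5.47. Adamts4, an aggrecanase that also cleaves biglycan and fibromodulin, fell by 0.66 with YEXX-2A and rose by 2.13 with YWCH-4A. Adamts1 went the other way, with a rise of 0.66 with YEXX-2A. It averaged 41.3 ± 4.23 FPKM with vehicle, 69.1 ± 2.63 with YEXX-2A and 31.3 ± 0.806 with YWCH-4A. Between the compounds 6 of the 11 were higher and 3 lower with YWCH-4A, and these are transcript levels that say nothing of cleavage.

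Of 13 tested ligands and receptors that SLRPs bind, 4 were lower and 1 higher with YEXX-2A, a share near the background, and 7 lower and 3 higher with YWCH-4A. Tlr2, the Toll-like receptor that recognises biglycan, averaged 0.433 ± 0.193 CPM with vehicle, 0.465 ± 0.152 with YEXX-2A and 7.93 ± 0.911 with YWCH-4A. It passed the read filter through the YWCH-4A libraries alone, so it had to differ to be tested, and no test of it is given here. Tlr2 is among the 3 counted higher with YWCH-4A, so that count describes the genes and supports nothing more. Ccn2, connective tissue growth factor, fell by 0.25 with YEXX-2A and by 2.28 with YWCH-4A. Tgfb3, a TGF-β isoform bound by several SLRPs, fell by 0.44 with YEXX-2A and by 1.24 with YWCH-4A. Tgfb1, another isoform, fell by 0.37 with YEXX-2A but was higher with YWCH-4A, at 309 ± 4.05 FPKM against 220 ± 26.8 with vehicle. Without vehicle replicate 2 the counts were 6 lower and 2 higher with YEXX-2A, and 7 lower and 4 higher with YWCH-4A.

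The enzymes that build the sugar chains were tested as separate lists. Of 21 tested genes for the linker and for chondroitin and dermatan sulfate, 4 were lower and 3 higher with YEXX-2A, and 2 lower and 7 higher with YWCH-4A (3 and 9 without vehicle replicate 2). Chsy1, a chondroitin synthase, rose by 0.49 with YEXX-2A, and Chst14, the dermatan 4-O-sulfotransferase, fell by 0.41. With YWCH-4A Ugdh, which makes the UDP-glucuronate that the chains need, rose by 0.84 and Xylt1, the xylosyltransferase that starts them, rose by 1.34. Of 4 tested genes for keratan sulfate, the chain of Fmod and Lum, 0 were called with YEXX-2A by edgeR (0 at an unadjusted p under 0.05, 0 by DESeq2). With YWCH-4A, 2 were higher, or 3 without vehicle replicate 2 and 1 by DESeq2. Chst2, a sulfotransferase acting on N-acetylglucosamine, averaged 41.3 ± 4.11 CPM with vehicle and 75.4 ± 1.51 with YWCH-4A, a rise of 0.87 (SE 0.08; adjusted p 1.52e-05, edgeR).

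Other proteoglycan core proteins gave 15 tested genes, of which 3 were lower and 1 higher with YEXX-2A, and 8 lower and 4 higher with YWCH-4A. Among those tested, Ncan had 56 pooled estimated counts with vehicle, 38 with YEXX-2A and 10 with YWCH-4A. It passed the read filter only through libraries outside YWCH-4A, so the counts of genes called with YWCH-4A are descriptive. The cell surface proteoglycan Sdc1 (syndecan-1) fell by 0.56 with YEXX-2A and by 0.86 with YWCH-4A, and the glypican Gpc4 fell by 0.28 and by 0.63. Sdc4 (syndecan-4) rose by 0.61 with YWCH-4A. Sdc2 (syndecan-2) rose by 0.27 with YEXX-2A and was lower with YWCH-4A than with YEXX-2A by a log2 difference of -0.81 (SE 0.07; adjusted p 8.41e-06, edgeR). Without vehicle replicate 2, 16 were tested, 4 lower and 2 higher with YEXX-2A and 8 lower and 4 higher with YWCH-4A.

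**Figure D5:**
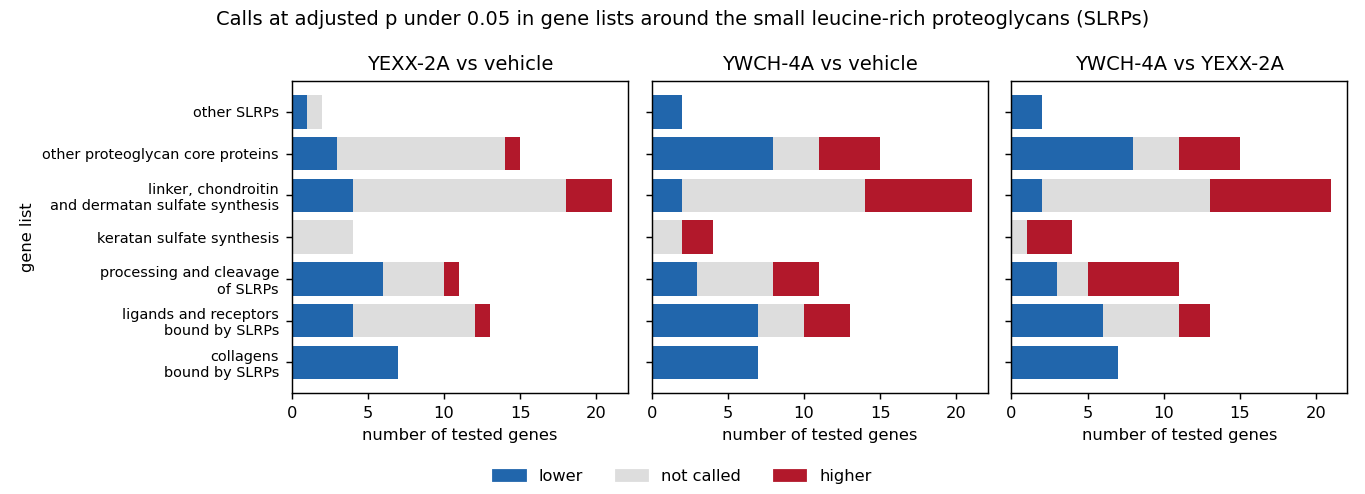
Number of tested genes (x axis) called lower, called higher or not called at an adjusted p under 0.05 in edgeR's test, for 7 gene lists around the SLRPs (y axis) in each comparison. All 7 collagens are lower in each comparison, and the processing and cleavage list holds 6 genes lower with YEXX-2A against vehicle.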

How the data were processed

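RNA-seq libraries were made from oligo(dT)-enriched mRNA with an NEBNext Ultra RNA kit, per the labels' protocols. The authors' tools included RSEM, StringTie 1.3.1, edgeR and DESeq2, per the submitters' processing notes; the aligner, genome build and use of strand are not given in the sources used here. The deposited gene table held expected counts and FPKM per library, per the file headers, and 8.87% of the deposited expected counts above 0 were not whole. Here they were rounded, filtered with filterByExpr (minimum count 10), scaled by TMM and entered, all 9 libraries together, into edgeR 4.0.16 (R 4.3.3), quasi-likelihood with robust fitting, with Benjamini-Hochberg adjustment over 11473 genes. The script was tested on simulated data. CPM uses TMM-scaled library sizes and compares libraries within a gene, and FPKM compares genes. Standard errors were taken from the F statistic. The 10 SLRP genes and all lists were chosen with earlier results of these data known, and at most 3 genes with the smallest p were named per list and comparison. In the lists, Podn, Ecm2, Gpc5, Col1a2, Col6a3 and Pecam1 were not matched to a row, and Hspg2 was matched by a RefSeq synonym. Alternatives used DESeq2 1.42.0 and limma 3.58.1, other scalings, filters and FPKM pseudocounts of 1 and 0.1, and left out each library in turn. The Aspn sum and the list counts without vehicle replicate 2 were chosen after seeing the data. The ratios of genes within a library were not among the planned results. Sequences and gene order came from RefSeq, build GRCr8.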

Additional observations from a re-analysis of the deposited data

How the results depend on the processing

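Across 19 alternatives each (other scalings and filters, DESeq2, limma, FPKM values, fewer groups, a replicate block, 1 library left out), the calls and directions held for Fmod in every comparison and for Epyc and Bgn in both with YWCH-4A, and no called value changed sign. For Epyc these calls, apart from that with no read filter, rest on a filter passed through the groups where it is high. The number of tested SLRPs called lower with YEXX-2A was 1 instead of 2 in limma on log2(FPKM + 1) and on log2(FPKM + 0.1), with only the 2 groups compared, and with the replicate block, since Lum lost its call. Leaving out 1 library gave 1 to 2 lower and 0 to 1 higher with YEXX-2A, the latter Aspn without vehicle replicate 1, and 3 to 5 lower with YWCH-4A. With YWCH-4A, Lum stayed uncalled in 16 of 19 alternatives, and its smallest difference was -0.19 in limma on log2(FPKM + 1) (adjusted p 0.36). It was called lower with DESeq2 (adjusted p 0.0164), in edgeR with DESeq2 size factors (adjusted p 0.0378) and in edgeR without vehicle replicate 2. Aspn with YWCH-4A was also called lower without that library and stayed uncalled in the other 18 alternatives. On log2(FPKM + 1), a scale that shrinks low genes, the fall of Fmod with YWCH-4A was -1.87 and that of Epyc -1.57. The cause of these changes was not tested except as stated.

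Over all genes, 4145 were called with YEXX-2A against vehicle, but 1408 with only those groups, 1931 with the replicate block, and 1459 or 1044 without YEXX-2A replicate 1 or 2. Between the compounds the 3593 calls became 5903 with only those groups, 6001 without vehicle replicate 2, and 2225, 2288 or 2293 without YEXX-2A replicate 2 or YWCH-4A replicate 1 or 3. Same-numbered libraries correlated at -0.27 to 0.08 in their deviations from the group mean. These values show no pairing by replicate number but, with 3 libraries per group, cannot exclude it. The block changed no SLRP call except that of Lum. Depth limits Dcn, Ogn and Prelp, at 8 estimated counts or fewer per library.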
